A study of Gallus gallus with 2 samples.

Results

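Tight and gap junction genes were described in the wings of 1 chick embryo, across 49 of the 24356 rows of the expression table. The rows were those whose gene symbol belongs to the claudin, occludin and MARVEL-domain, junctional adhesion molecule (JAM), ZO and cingulin, PAR and Crumbs polarity, connexin or pannexin families. One of these rows, CGNRHRL, shares letters with cingulin but is named as a hormone receptor-like gene, so 48 rows were junction genes. Ratios were taken for the 38 members with a mean of at least 1 TPM, a unit of transcript abundance that divides out transcript length and gives every library an equal sum. Another 7 rows, CGNRHRL among them, lay above 0 with a mean under 1 TPM, and 4 were listed at 0 in both libraries. The RefSeq chicken table (assembly GRCg7b) gives 14 further genes of these families, such as CLDN5 and F11R, whose symbols have no row and which were not analysed here; one of them, GJC3, may be the row named GJC1.

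Injection of the right wing was with RCAS-GFP-SOCS2, a retrovirus of birds that replicates in its host and here carried GFP and SOCS2, a suppressor of cytokine signalling. The uninjected left wing of this embryo was the control. Wings were taken for RNA at HH 34 (a Hamburger-Hamilton stage at which digits form), 5 days after infection, and the embryo had been chosen for its overexpression of SOCS2. With 1 library in each group, no difference had a replicate check and no error or p-value was computed. Injected cannot be told apart from right. No wing here received a virus without SOCS2, so SOCS2 cannot be told apart from the injection, the virus or GFP. SOCS2 was at 254 TPM in the injected wing and 54.2 TPM in the uninjected wing. All 6 fixed markers of forelimb mesenchyme were detected in both wings, with log2 ratios from −0.79 for HOXD11, which was over 1.5-fold lower, to 0.28 for TBX5, and a median of −0.21.

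Tight junctions seal the space between neighbouring epithelial or endothelial cells. Claudins and occludin span the membrane, JAM proteins add adhesion, and ZO proteins and cingulin tie the complex to actin. PAR and Crumbs proteins place this belt near the apical face of the cell. Connexins instead form gap junctions, channels that let ions and small molecules pass between cells, and in the developing limb they occur within both mesenchyme and ectoderm. Pannexins are related to connexins in fold but form channels to the outside of the cell.

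Most abundant junction genes had close levels in the wings, and the large ratios belonged to genes with low levels. Of the 38 members compared, 4 were over 1.5-fold higher in the injected wing (CLDN14, CLDN19, GJB1 and GJA3), 3 were lower (CLDN8, GJB6 and CGN) and 31 lay within that range. Among all 13946 genes compared, 2.23% were higher and 4.79% lower by this rule of size, 7.02% in all, against 18.4% of the members. The split over all genes was 311 higher and 668 lower, and 434 higher and 523 lower once the abundance trend was taken out. CLDN14 alone was over 2-fold higher and CLDN8 alone over 2-fold lower, as were 0.502% and 1.48% of all genes. The share of members past 1.5-fold differed by abundance. Of the 8 members with a mean of 1 to 5 TPM, 5 passed 1.5-fold, where 23.2% of all genes at that abundance did. Of the 30 members with a mean of 5 TPM or more, 2 passed it, or 6.67%, where 3.60% of all genes did. Both had means of 5 to 20 TPM, where 2 of 13 members passed, or 15.4%. The share of all genes in that narrower range was not computed. None of the 17 members with a mean of 20 TPM or more passed it, at an abundance where the shares of all genes were 2.04% from 20 to 100 TPM and 1.87% above. The median log2 ratio of injected over uninjected was −0.05 for the members and −0.04 for all genes, and 55.3% of members and 59.7% of all genes lay below 0. Without matching for abundance, 57.9% of the members lay within 1.2-fold, against 74.3% of all genes. That share was not computed by abundance, so a wider spread of the members at equal levels was not tested. In these bulk samples fewer cells of a type cannot be told apart from less RNA per cell.

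**Figure D1:**
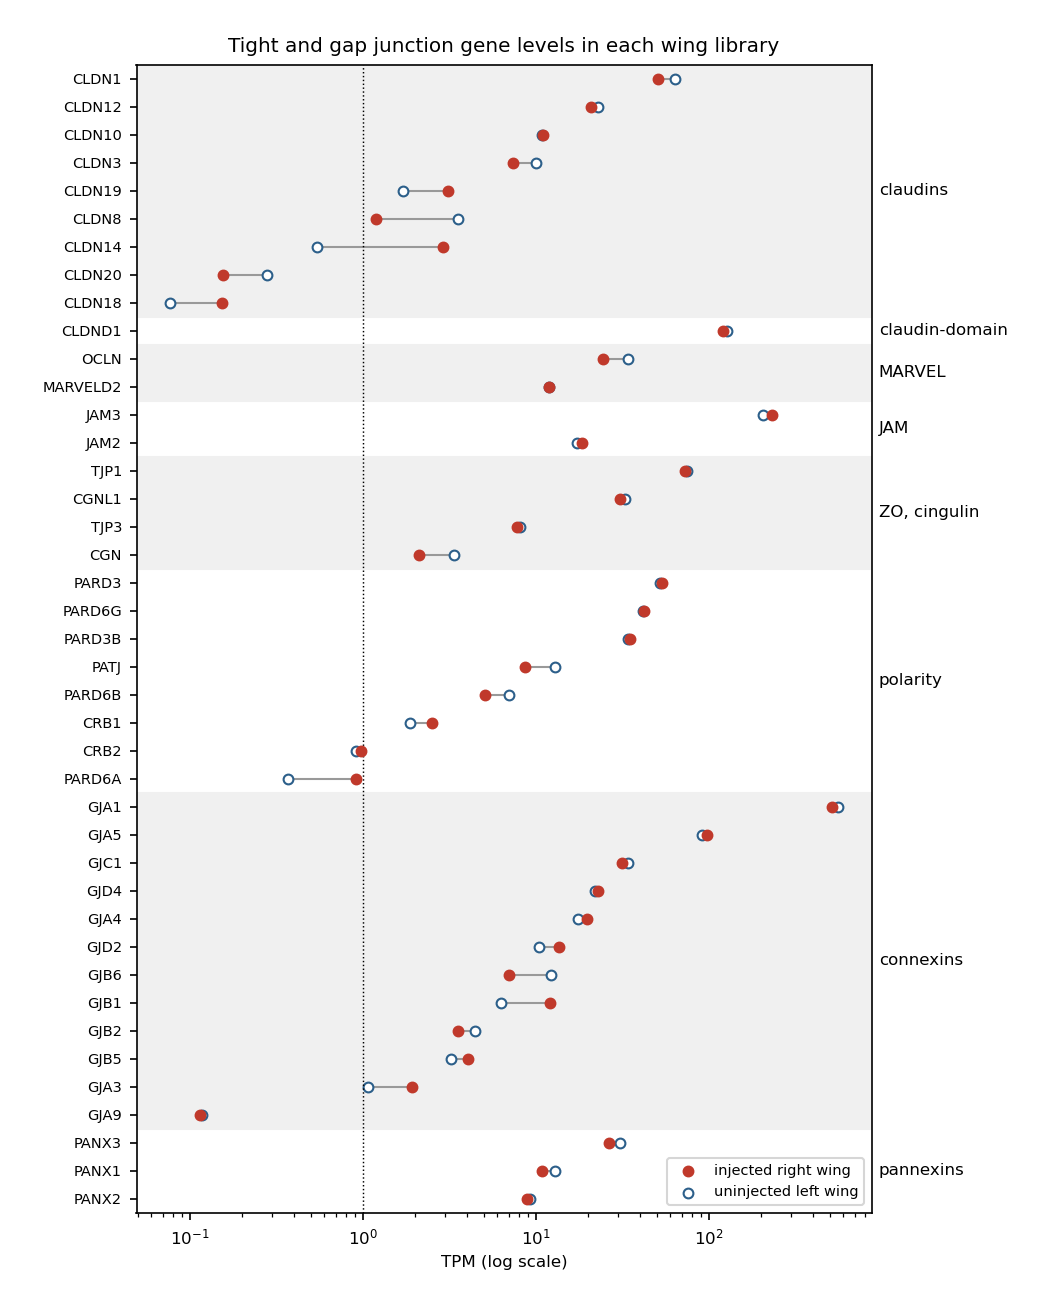
Level in TPM on a log axis of 41 junction genes above 0, grouped by family, in the injected right wing (filled) and the uninjected left wing (open), 1 library each. The dotted line marks 1 TPM. GJA1 and JAM3 had the highest levels and nearly overlapping points, while CLDN14 and CLDN8 were the most widely separated of the members with a mean above that line.

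The claudins, which set the tightness and ion selectivity of the seal, held the members with the highest and the lowest ratio. CLDN14, which in mammals is known from the inner ear and kidney, was at 2.91 TPM in the injected and 0.55 TPM in the uninjected wing. Its log2 ratio of 2.22 was the third highest of the 13946 genes, though at a level where 1 TPM added to both values lowered it to 1.34. CLDN14 reached a mean of 1 TPM only through the injected wing, so its inclusion and its rank rest on the wing where it was high. CLDN8, a claudin of the distal kidney tubule in mammals, was lower, at 1.19 TPM in the injected wing and 3.54 TPM in the uninjected wing, a log2 ratio of −1.50. CLDN19, which in mice is expressed in Schwann cells and kidney, was at 3.12 TPM injected against 1.71 TPM uninjected, a log2 ratio of 0.83. All 3 had means under 5 TPM, and none exceeded 3.21% of the summed claudin TPM in either wing.

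The main claudins lay within 1.5-fold. CLDN1, the barrier claudin of the skin, was at 50.6 TPM in the injected and 64.0 TPM in the uninjected wing, a log2 ratio of −0.34. It accounted for 51.9% of the summed TPM of the 12 claudin rows of the injected wing and 56.1% in the uninjected one. CLDN12 followed at 20.9 TPM in the injected wing and 22.9 TPM in the uninjected wing, and CLDN10 at 10.98 and 10.92 TPM in these wings. CLDN3, a sealing claudin of many epithelia, was at 7.40 TPM injected against 10.03 TPM uninjected, a log2 ratio of −0.43. The claudin sum was 97.4 TPM in the injected and 114 TPM in the uninjected wing, and CLDN1 alone differed by −13.4 TPM. The median log2 ratio of the 7 claudins compared was −0.13. Below the limit for a ratio, CLDN20 and CLDN18 were under 0.3 TPM in each wing, and CLDN2, CLDN16 and CLDN23 were listed at 0. CLDND1, a claudin-domain protein outside the classical family, had 120 TPM in the injected wing and 127 TPM in the uninjected wing.

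None of the other membrane proteins of the tight junction passed 1.5-fold. Occludin, OCLN, was at 24.5 TPM injected against 33.9 TPM uninjected, a log2 ratio of −0.47 and within 1.5-fold. Its relative MARVELD2 (tricellulin), which seals the corners where cells meet, was at 11.9 TPM in both wings. JAM3, the second most abundant member in each wing, was at 232 TPM in the injected and 206 TPM in the uninjected wing, a log2 ratio of 0.17. JAM2, an adhesion partner of JAM3 on endothelial cells, was at 18.5 TPM in the injected wing and 17.2 TPM in the uninjected wing. Thus OCLN was lower with a ratio close to that of CLDN3, while the JAM genes were slightly above 0.

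The scaffolds beneath the membrane were close in level, with a single member past 1.5-fold. TJP1, which encodes ZO-1, was at 72.4 TPM injected against 75.3 TPM uninjected. TJP3, which encodes ZO-3, had a log2 ratio of −0.06. CGNL1 (paracingulin), found at both tight and adherens junctions, was at 30.6 TPM in the injected and 32.8 TPM in the uninjected wing. Cingulin itself, CGN, was lower at 2.12 TPM in the injected wing and 3.37 TPM in the uninjected wing, a log2 ratio of −0.64. It no longer passed 1.5-fold with a pseudocount of 1 TPM, at −0.48, or once the abundance trend was taken out of the ratios, at −0.52.

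None of the 6 polarity genes compared passed 1.5-fold, but those of PATJ and PARD6B were well below the rest. PARD3 and PARD3B, the PAR3 scaffolds that recruit the complex to the junction, had log2 ratios of 0.05 and 0.04, and PARD6G, an adaptor for atypical protein kinase C, had 42.0 TPM injected against 41.9 TPM uninjected. PARD6B, another PAR6 adaptor, was at 5.11 TPM in the injected and 6.99 TPM in the uninjected wing, a log2 ratio of −0.44. PATJ, the multi-PDZ scaffold of the Crumbs complex, stood just inside the 1.5-fold limit, at 8.67 TPM in the injected wing and 12.9 TPM in the uninjected wing, a log2 ratio of −0.56. CRB1, a Crumbs protein, was at 2.52 TPM in the injected wing and 1.87 TPM in the uninjected wing (log2 ratio 0.41). Its relative CRB2, at 0.97 TPM injected against 0.92 TPM uninjected, lay just below the limit for a ratio. PARD6A, at 0.91 and 0.37 TPM in these wings, had a mean of 0.64 TPM, further below that limit. GJA3, with a mean of 1.49 TPM, and CLDN14, with a mean of 1.73 TPM, were the members nearest above it.

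**Figure D2:**
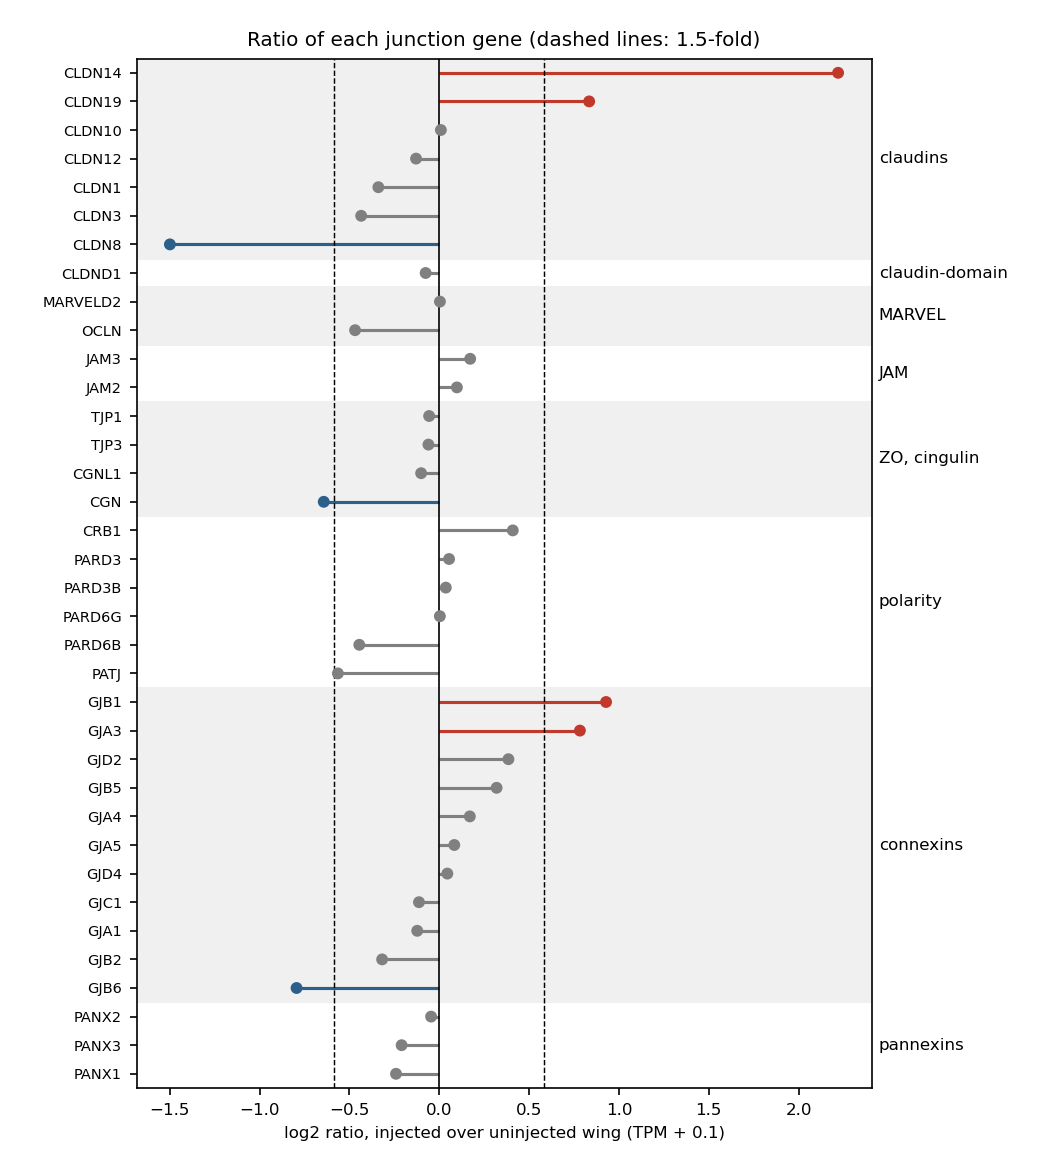
Log2 ratio of injected over uninjected wing for 36 of the members compared, by family, from TPM + 0.1 in 1 library each, with dashed lines at 1.5-fold. Red marks the 4 members above it (CLDN14, CLDN19, GJB1, GJA3), blue the 3 below it (CLDN8, CGN, GJB6) and grey the 29 within.

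Among the connexins, 2 of 12 were higher, 1 was lower and 9 lay within 1.5-fold, with a median log2 ratio of 0.06. GJB1, the connexin of Schwann cells and liver in mammals, was at 12.1 TPM in the injected and 6.33 TPM in the uninjected wing, a log2 ratio of 0.93. GJB6, a connexin of skin and inner ear in mammals, was lower at 7.001 TPM in the injected wing and 12.2 TPM in the uninjected wing, a log2 ratio of −0.79. These were the only members past 1.5-fold with a mean above 5 TPM. GJB1 was above GJB6 in the injected wing and below it in the uninjected wing. GJA3, a lens connexin, was at 1.91 TPM in the injected wing and 1.07 TPM in the uninjected wing (log2 ratio 0.78), and with a pseudocount of 1 TPM its ratio was 0.49, within 1.5-fold.

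GJB6, GJB2 and GJA3 follow one another as neighbouring protein-coding genes in the RefSeq chicken table. Along this order the log2 ratios were −0.79, −0.32 and 0.78, so GJB6 and GJB2 lay below 0 and GJA3 above it. GJB2, the partner of GJB6 in many epithelia, was at 3.54 TPM injected against 4.44 TPM uninjected.

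GJA1, the most widely expressed connexin and one known from limb mesenchyme and bone, dominated the family. It was at 514 TPM in the injected wing and 559 TPM in the uninjected wing, a log2 ratio of −0.12. This made up 65.1% of the summed connexin TPM of the injected wing and 67.4% in the uninjected one. The difference of −45.5 TPM was the largest of any member in absolute terms, although the ratio was small. Connexin sums were 789 TPM injected against 829 TPM uninjected.

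Connexins of vessels and muscle were near 0. GJA5 and GJA4, which couple arterial endothelial cells, were at 97.1 and 19.8 TPM in the injected wing and at 91.6 and 17.5 TPM in the uninjected wing, with log2 ratios of 0.08 and 0.17. GJD4, known in mammals from muscle precursors, had a log2 ratio of 0.05. GJC1 was at 31.4 TPM in the injected and 33.9 TPM in the uninjected wing. RefSeq lists GJC1 as an older symbol of the chicken gene GJC3.

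The other connexins were at lower levels than these. GJD2, the main connexin of electrical synapses between neurons, had 13.7 TPM in the injected wing and 10.5 TPM in the uninjected wing, a log2 ratio of 0.39. GJB5, a skin connexin in mammals, had a log2 ratio of 0.32. GJA9 was at 0.11 TPM injected against 0.12 TPM uninjected, and GJA10 was listed at 0 in both.

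All 3 pannexins lay within 1.5-fold and below 0, where 59.7% of all genes did. PANX3, the pannexin of cartilage and bone, was at 26.4 TPM in the injected and 30.6 TPM in the uninjected wing, a log2 ratio of −0.21. PANX1, an ATP release channel found in most tissues, had 10.8 TPM in the injected wing and 12.8 TPM in the uninjected wing, a ratio of −0.24. PANX2 had −0.05, close to the median of all genes, −0.04. Its ratio was 0.0009 with trimmed-mean scaling of the libraries and 0.03 once the abundance trend was taken out. The cartilage markers lay mostly on the other side of 0, with 10 of 12 above it. Of the 12, 2 were over 1.5-fold higher, where 2.23% of all genes were. Their median log2 ratio was 0.31, with sums of 3064 TPM injected against 2528 TPM uninjected. The part of cartilage in the ratio of PANX3 was not tested.

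**Figure D3:**
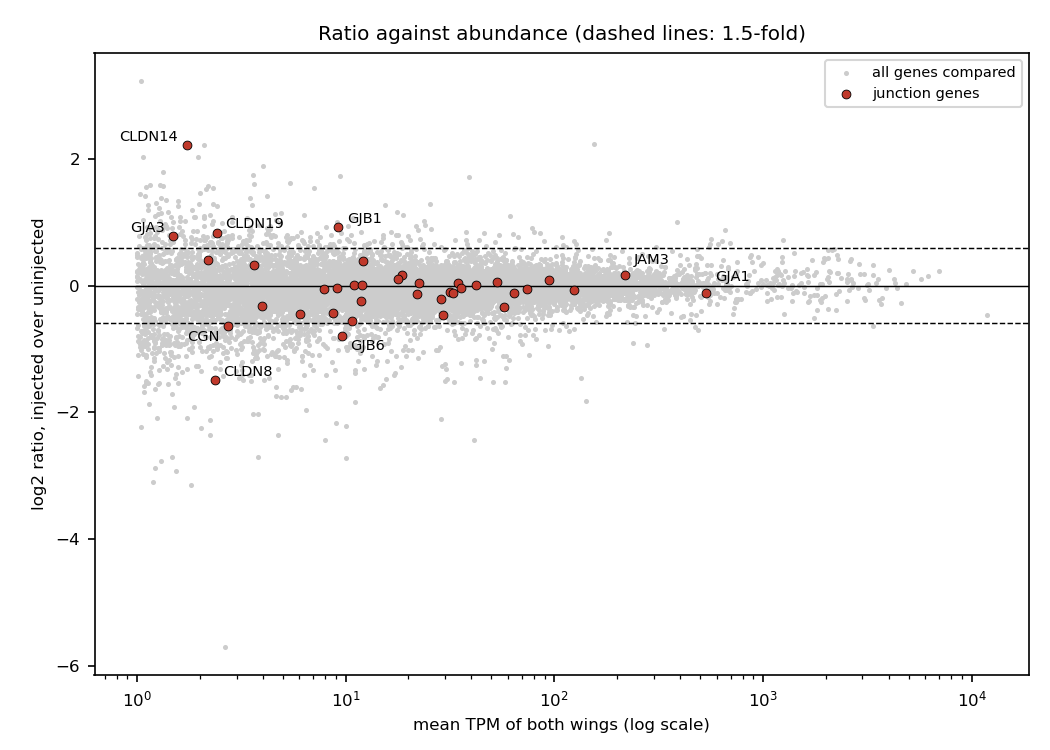
Log2 ratio of injected over uninjected wing against the mean TPM of both wings (log axis), for all 13946 genes compared (grey) and the 38 junction members (red), with dashed lines at 1.5-fold. The 7 members past the lines have means under 10 TPM, where the grey cloud is also widest, and GJA1 and JAM3 sit near 0.

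None of the genes compared that work with these junctions passed 1.5-fold. Of a list of 47 such genes, 33 had a row and 32 were compared, and 0 were higher and 0 lower by more than 1.5-fold, with a median log2 ratio of −0.04. That count is near the background, since 3.60% of all genes with a mean of 5 TPM or more passed the rule. CDC42, the GTPase that activates the PAR complex, was at 663 TPM in both wings, and YBX3, a DNA-binding partner of ZO-1, was at 360 TPM injected against 355 TPM uninjected. The log2 ratios ran from −0.49 for CNST, which takes part in connexin transport, to 0.40 for PRKCZ, an atypical protein kinase C of the PAR complex.

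Markers of other cell types were set beside the members. Of 14 surface ectoderm markers with a row, 13 were compared. Of these, 1 was over 1.5-fold lower, where 4.79% of all genes were, and 12 lay within that range. In all, 12 of the 13 had ratios below 0, where 59.7% of all genes did, with a median log2 ratio of −0.32 and a range of −0.72 to 0.18. Their summed level was 531 TPM in the injected and 641 TPM in the uninjected wing, and KRT75 was listed at 0 in the uninjected wing. The epithelial adhesion gene EPCAM was at 82.7 TPM in the injected wing and 106 TPM in the uninjected wing, a log2 ratio of −0.36. Beside it stood CLDN1 at −0.34, GJB2 at −0.32, CLDN3 at −0.43 and OCLN at −0.47, while MARVELD2 at 0.00 was near 0 and GJB5 at 0.32 lay above the whole range of the ectoderm markers. CGN and PATJ also lay inside the range of the ectoderm markers, as did most members, so a place in it does not link a gene to ectoderm. CLDN8 and GJB6 lay below all 13, the lowest of which was the splicing regulator ESRP1 at −0.72. The part of the ectoderm in these differences was not tested.

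Schwann cell and nerve markers spanned both directions. Of 12 with a row, 11 were compared, and the median log2 ratio was 0.07. By more than 1.5-fold, 4 were higher and 0 lower, where 2.23% and 4.79% of all genes were. Their summed level was 218 TPM injected against 209 TPM uninjected, and none was listed at 0. The neuronal gene STMN2 was at 11.6 TPM in the injected wing and 7.06 TPM in the uninjected wing, a log2 ratio of 0.71, and the glial factor SOX10 had 0.61, just past the 1.5-fold limit. GJB1 at 0.93 and CLDN19 at 0.83 lay inside the range of the list, which ran from −0.42 to 1.15. Most members lay inside that range, so a place in it does not link a gene to these cells. The part of Schwann cells in the ratios of GJB1 and CLDN19 was not tested.

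Endothelial markers, all with means above 5 TPM, had 0 of 10 past 1.5-fold. That count is near the background, since 3.60% of all genes with a mean of 5 TPM or more passed. Their median log2 ratio was −0.01, with sums of 452 TPM in the injected and 460 TPM in the uninjected wing. GJA4, GJA5 and JAM2, members known from vessels, had ratios of 0.17, 0.08 and 0.10. CLDN14, at 2.22, stood above every compared gene of the 8 cell type marker lists, the highest of which was at 1.15. It was compared only because of its level in the injected wing, and 1 TPM added to both values lowered it to 1.34. Its place above the lists is therefore no result about this gene. Of the remaining lists, erythroid markers had 4 of 10 rows lower by more than 1.5-fold (median log2 ratio −0.40), where 4.79% of all genes were. These rows hold 9 symbols, as HBBR has more than 1 row. Skeletal muscle markers had 2 of 11 higher (0.20), where 2.23% of all genes were. Macrophage markers had 0 of 7 past 1.5-fold (0.00), a count near the background, as 7.02% of all genes were.

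**Figure D4:**
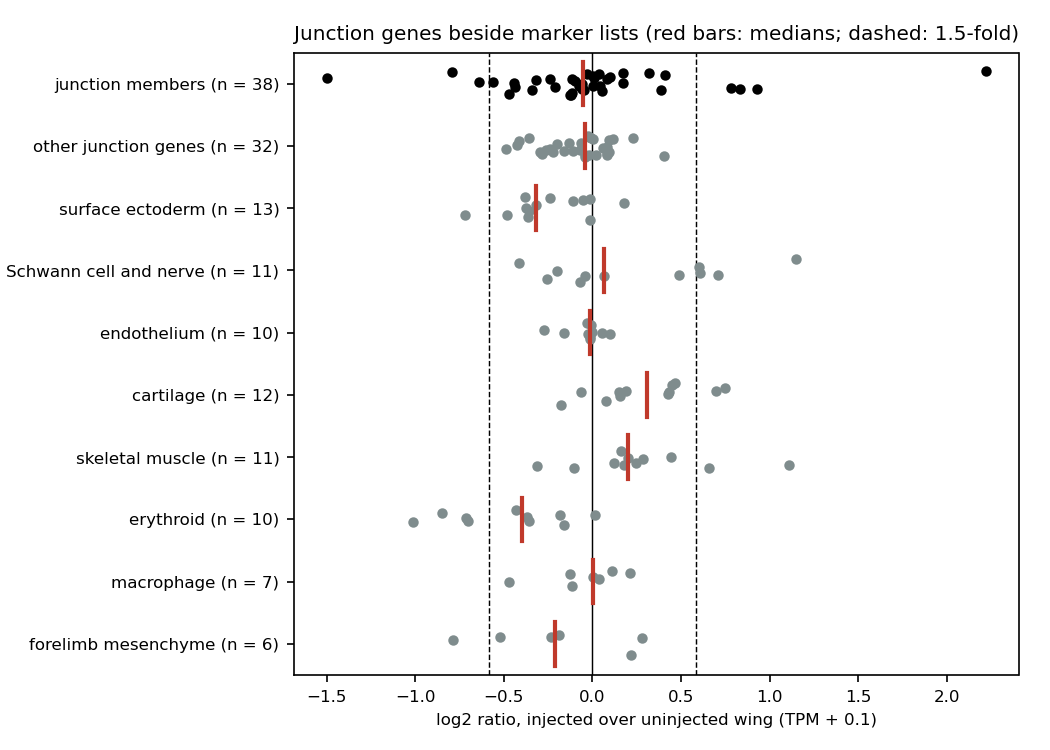
Log2 ratio of injected over uninjected wing for the 38 junction members, for other junction genes and for 8 lists of cell type markers. Each point is a gene from 1 library per wing, red bars are medians and dashed lines mark 1.5-fold. The ectoderm points lie mostly below 0 (median −0.32), cartilage above it (0.31) and endothelium near it (−0.01). The junction members reach beyond every list at both ends. The upper end is CLDN14, which reached a mean of 1 TPM only through the injected wing.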

How the data were processed

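The authors deposited TPM values for 24356 rows with Ensembl chicken identifiers, and each library sums to 1000000. Per the submitters' processing notes, the tools were HISAT2 2.2.1 and StringTie 2.1.7 and the build GRCg6a. The annotation, trimming, strand setting and role of each tool were not given in the sources used here. Because TPM keeps no read depth, no counting interval is given, and the precision of low values is unknown. Without a known strand setting, reads of overlapping genes cannot be told apart. The deposited raw counts were left aside, because their 2 columns, SC1_C and SC1_R, match neither sample's title; which embryo they come from was not known here.

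Log2 ratios were log2(TPM + 0.1) of the injected minus that of the uninjected wing. Rows compared had a mean of at least 1 TPM and were above 0 in both. The 1309 short RNAs among the 24356 rows were left out whatever their level. The offset understates changes of low genes. Past 1.5-fold was a rule of size, not a test. The members, families and lists were chosen with earlier results of these data known. Every member could be named, though some genes are not reported here; of the lists, genes past 1.5-fold and the most abundant were to be named, and SOCS2, EPCAM, CNST, PRKCZ and TBX5 were added after their values were seen. The ratios and scalings were tested on simulated data with a smaller pseudocount and the same noise at every abundance. Removal of the abundance trend was not simulated, and the error of ratios at low levels was not tested. Alternatives were pseudocounts of 0.01 and 1 TPM, no filter, a minimum of 5 TPM, 3 scalings, removal of the abundance trend and a 2-fold rule; keeping short RNAs was added after the data were seen. Python 3.11.15, pandas 2.3.3, NumPy 2.4.6 and matplotlib 3.10.9 were used.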

Additional observations from a re-analysis of the deposited data

How the results depend on the processing

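Of the 38 member ratios, 36 kept their side of 1.5-fold under the 9 alternatives that gave a ratio for them. The exceptions were CGN and GJA3. No filter, the minimum of 5 TPM and keeping short RNAs changed only which rows were compared. These settings could not move a ratio and are no check of it. CLDN14 ranged from 1.34 to 2.39, CLDN8 from −1.57 to −1.05, GJB1 from 0.84 to 0.98, GJB6 from −0.80 to −0.72 and CLDN19 from 0.61 to 0.92. With a minimum mean of 5 TPM, 1 member was higher and 1 lower (GJB1 and GJB6), the claudin median was −0.23, and 122 genes were higher and 292 lower among all genes, where 8 members were no longer compared. With a 2-fold rule, 1 member was higher and 1 lower (CLDN14 and CLDN8), beside 70 higher and 207 lower genes. Counts over all genes were 311 higher and 668 lower as reported, 186 and 432 with a pseudocount of 1 TPM, 831 and 1298 with no filter, 383 and 582 with trimmed-mean scaling, and 434 and 523 with the abundance trend removed. No paired analysis was possible because there was 1 pair of wings: each ratio is within that pair, no test over pairs exists, and no replicate could be left out. The depth is unknown, so how far low values limit these ratios was not tested.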
